A study of Mus musculus with 9 samples.

Results

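The CXC chemokines examined here were Cxcl1, Cxcl2, Cxcl3, Cxcl5, Cxcl13 and Cxcl16, taken as all probe sets whose single gene symbol in the platform annotation is one of these names. There were 10 such probe sets of 45101 on the array: 3 for Cxcl1, 2 for Cxcl13, 2 for Cxcl16 and 1 for each of the others. All 10 passed the filter on low signals, so all 6 genes were among the 12586 genes tested. Transcript levels had been measured on 9 Affymetrix mouse arrays, in cells that were grown from bone marrow of the 129/SvEv strain over 9 to 12 days in GM-CSF, which yields dendritic cells. The groups were STING knockout cells with purified DNA of tumor cells delivered by lipofection for 7 h, wild-type cells given the same kind of DNA, and wild-type cells in media with no stimulation, with 3 arrays each. STING is the adaptor through which cells respond to cytosolic DNA. Neither unstimulated knockout cells nor cells with the lipid reagent alone were analysed here, so an effect of the DNA cannot be told apart from one of the reagent, nor can an effect of the knockout under DNA from one already there in media. The labels do not state whether the 3 arrays of a group stand for separate mice or cultures, and p-values here rest on the spread between arrays alone, which may be technical.

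Sting1 read 246, 336 and 327 in knockout cells under DNA, 2258, 1061 and 1158 in wild-type cells under DNA, and 1524, 1081 and 646 in wild-type cells in media. Its knockout difference under DNA was -2.17 ± 0.35 (adjusted p = 0.0016). Where its probe set lies relative to the deleted part is not given in the sources used here.

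CXC chemokines are small secreted proteins that draw leukocytes along a gradient through G protein-coupled receptors. In mice, Cxcl1, Cxcl2, Cxcl3 and Cxcl5 act on Cxcr2 and call in neutrophils, and in macrophages and dendritic cells the first of them are classic targets of NF-kappaB, with short-lived messages. Cxcl13 acts on Cxcr5 and gathers B cells into follicles. Cxcl16 is made as a membrane protein that also binds oxidised lipids, is cut from the surface by Adam10 and Adam17, and acts on Cxcr6.

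Cxcl5, Cxcl3, Cxcl1 and Cxcl2 lie in this order in one run on mouse chromosome 5, with Ppbp, Pf4 and Cxcl15 among them and 0 other protein-coding genes between, in the RefSeq annotation of GRCm38.p6. Cxcl9 follows after 16 further protein-coding genes and Cxcl13 stands beyond Cxcl10 after 41 more, while Cxcl16 is on chromosome 11. Promoter sequences from RefSeq (GRCm38.p6) were at hand for 4 of the 6 genes. They are shown because Cxcl1, Cxcl2 and Cxcl3 are neighbours known as NF-kappaB targets and Cxcl13 is the most variable gene of the set. Each line gives the 120 bases before the annotated transcription start, 5′ to 3′ on the plus strand, with capitals for matches to the NF-kappaB consensus, a motif of 10 bases, and for TATAAA. The stretches are chr5:90891125-90891244 for Cxcl1, chr5:90903779-90903898 for Cxcl2, chr5:90785981-90786100 for Cxcl3 and chr5:95956819-95956938 for Cxcl13.
Cxcl1: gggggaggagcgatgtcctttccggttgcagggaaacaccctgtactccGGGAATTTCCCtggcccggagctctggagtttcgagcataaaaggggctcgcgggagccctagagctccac
Cxcl2: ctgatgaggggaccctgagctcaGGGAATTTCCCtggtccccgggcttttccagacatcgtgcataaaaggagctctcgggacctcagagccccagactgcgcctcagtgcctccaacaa
Cxcl3: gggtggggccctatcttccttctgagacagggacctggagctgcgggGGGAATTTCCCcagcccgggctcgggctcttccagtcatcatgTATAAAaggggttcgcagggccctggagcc
Cxcl13: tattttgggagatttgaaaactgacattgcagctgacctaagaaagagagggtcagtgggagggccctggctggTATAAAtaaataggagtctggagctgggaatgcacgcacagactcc
Cxcl1, Cxcl2 and Cxcl3 each held the same 11-base run, GGGAATTTCCC, in which a match on each strand overlaps the other. It began at base -71 in Cxcl1, -97 in Cxcl2 and -73 in Cxcl3, counted from the start site. The search covered both strands of windows from 250 bases before to 50 after the start, and no match of the NF-kappaB consensus was found in the Cxcl13 window. TATAAA began at base -30 in Cxcl3 and at base -46 in Cxcl13. The interferon response element GAAANNGAAA was in none of the 4 windows. Of 32851 mouse windows of this length, 8.46% held the NF-kappaB consensus, 3.44% the interferon element and 13.6% TATAAA. Among the other CXC ligands with a window, Cxcl10 held the NF-kappaB consensus at 2 places and the interferon element at 1 place, and Cxcl14 held the interferon element at 1, as the map of motif matches shows. A match of letters is a description and not a site of binding.

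**Figure D1:**
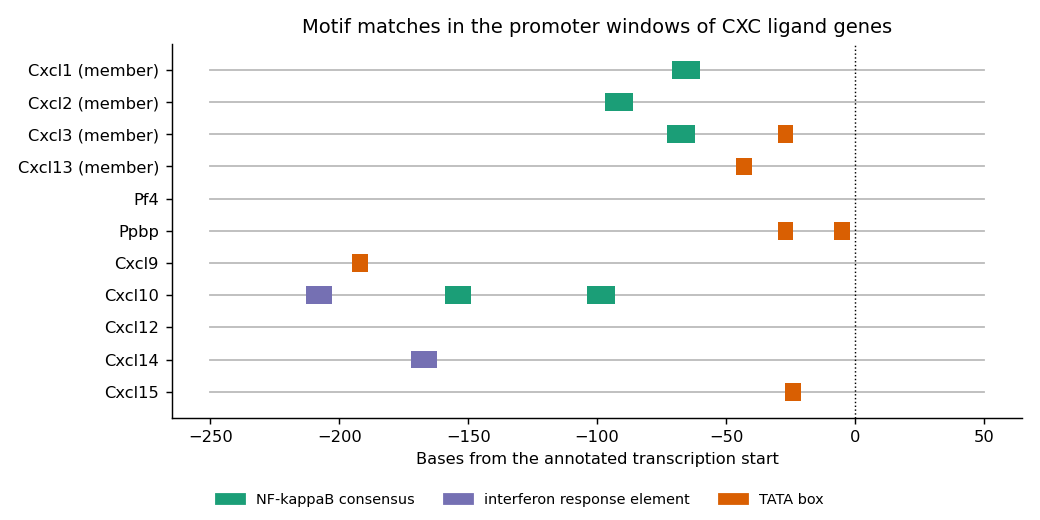
Places of motif matches in promoter windows of CXC ligand genes, as bases from the annotated transcription start (dotted line), 1 row a gene. Cxcl1, Cxcl2 and Cxcl3 each hold the NF-kappaB consensus (green) between base -97 and base -61, and Cxcl13 holds only TATAAA (orange) of the motifs searched.

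None of the 6 chemokine genes passed the test in any of the 3 comparisons. The test was limma's moderated test on log2(signal + 16) over all 9 arrays, with Benjamini-Hochberg adjustment over 12586 genes and a threshold of 0.05 on the adjusted p. Between tumor DNA and media in wild-type cells 0 of 6 were called, where 33.6% of all genes were, and 0 had an unadjusted p under 0.05, where 44.1% of all genes did. Between knockout and wild-type cells under DNA 0 of 6 were called, against 31.5% of all genes, and 0 had an unadjusted p under 0.05, against 42.7%. Between knockout cells under DNA and wild-type cells in media 0 of 6 were called, against 0.429% of all genes, and 2 (Cxcl5 and Cxcl13) had an unadjusted p under 0.05, against 7.53%. The 3 arrays of each group carry numbers 1 to 3 in their titles, and arrays of the same number deviated together from their group means. With the number as a block in the fit, 2 of the 6 genes passed in each of the first 2 comparisons and 1 in the third. Under DNA against media, Cxcl16 rose and Cxcl13 fell with the block, where 13.2% of all genes rose and 31.6% fell. In knockout against wild-type cells under DNA, Cxcl13 and Cxcl16 fell, where 13.0% of all genes fell. In knockout cells under DNA against wild-type cells in media, Cxcl13 fell, where 0.715% of all genes fell. The neutrophil attractants Cxcl1, Cxcl2, Cxcl3 and Cxcl5 passed in none of the 3 comparisons, with or without the block, when all 9 arrays were used.

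The median log2 difference of the 6 genes was 0.33 for DNA against media, -0.17 for knockout against wild-type cells under DNA and 0.37 for knockout cells under DNA against media. The same medians over all genes tested were -0.20, 0.20 and -0.01. Under quantile normalization the medians over all genes were -0.098, 0.10 and 0.0038, so their size depends on the scaling between arrays. With 3 arrays a side, the values of a gene can fall in groups that do not overlap. None of the 6 did so under DNA against media, against 46.4% of all genes. Cxcl13 did so in the other 2 comparisons, 1 of 6 genes each, against 46.0% of all genes for knockout against wild-type cells under DNA and 13.8% for knockout cells under DNA against media. The last comparison changes both genotype and DNA, and each pair of comparisons shares 3 arrays.

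**Figure D2:**
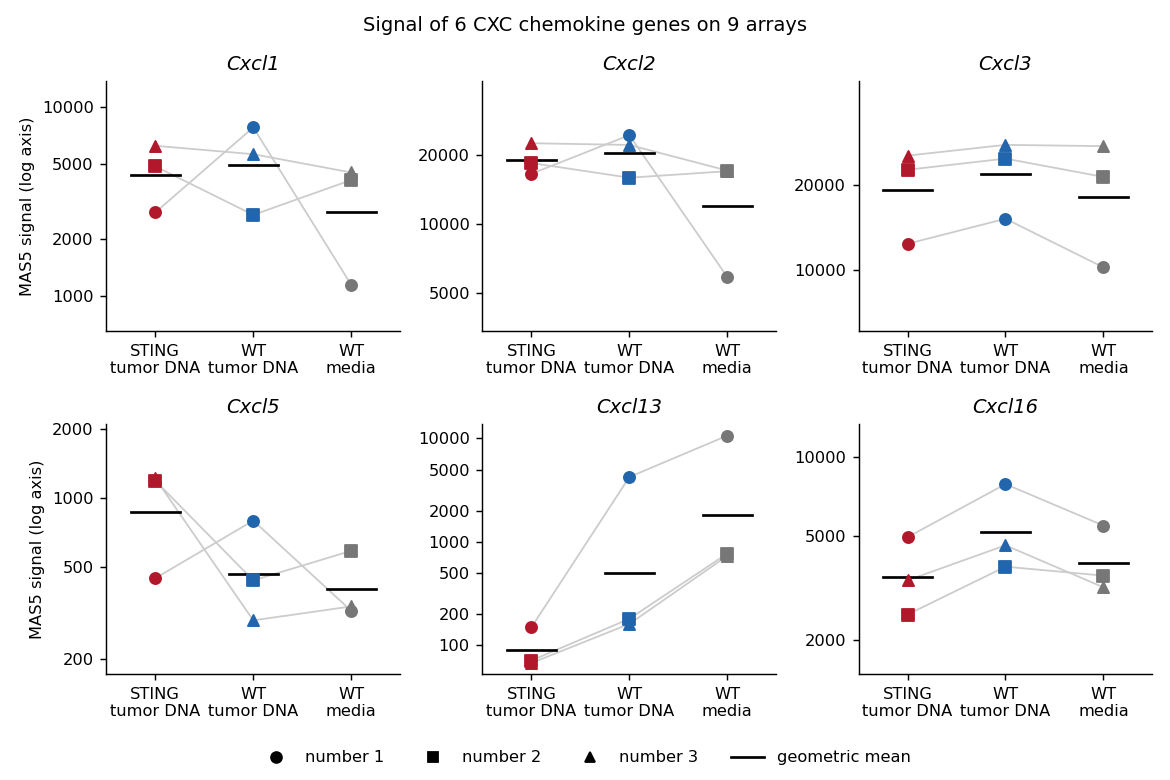
MAS5 signal (log axis) of the probe set that stands for each gene, in STING knockout cells given tumor DNA (red), wild-type cells given tumor DNA (blue) and wild-type cells in media (grey), with arrays of the same number joined and bars at the geometric mean. Cxcl13 is near 10635 and 4235 on the number 1 arrays of wild-type cells and between 67.6 and 149.5 on all 3 arrays of knockout cells.

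Cxcl1 (probe set 1419209_at) read 2764, 4854 and 6239 in knockout cells under DNA, 7810, 2683 and 5631 in wild-type cells under DNA, and 1142, 4107 and 4504 in wild-type cells in media, for numbers 1, 2 and 3. All groups overlapped. The lowest of the 9 values was the number 1 array in media and the highest the number 1 array of wild-type cells under DNA. The DNA difference in wild-type cells was 0.82 ± 0.55 (log2, SE; adjusted p = 0.28, 95% interval -0.41 to 2.06). Within the numbers it was 2.76, -0.61 and 0.32, and without number 1 it was -0.14. In the blocked fit without number 2 it was 1.54 (adjusted p = 0.047). The knockout difference under DNA was -0.16 ± 0.55 (adjusted p = 0.85, 95% interval -1.40 to 1.07), and without number 1 it was 0.50. Both intervals reach above and below 0. The other probe sets of Cxcl1, 1457644_s_at and 1441855_x_at, gave 1.26 ± 0.61 and 0.70 ± 0.40 for DNA against media and -0.39 ± 0.61 and -0.16 ± 0.40 for the knockout under DNA, with the same signs.

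Cxcl2 (1449984_at), a close relative of Cxcl1, read 16502, 18374 and 22399 in knockout cells under DNA, 24276, 15868 and 22010 in wild-type cells under DNA, and 5878, 16936 and 17037 in wild-type cells in media. Of these values 8 lay between 15868 and 24276, and the number 1 array in media lay apart at 5878. The DNA difference was 0.77 ± 0.36 (adjusted p = 0.13; 0.078 with the block), made up of 2.04, -0.09 and 0.37 within the numbers. In the blocked fit without number 2 it was 1.21 (adjusted p = 0.031). The knockout difference under DNA was -0.11 ± 0.36 (adjusted p = 0.85, 95% interval -0.92 to 0.71), with -0.56, 0.21 and 0.03 within the numbers. Its sign turned under quantile normalization, to 0.15.

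Cxcl3 (1438148_at), another Cxcr2 ligand, read 12388, 22646 and 25402 in knockout cells under DNA, 15193, 24794 and 27729 in wild-type cells under DNA, and 10226, 21360 and 27445 in wild-type cells in media. In every group number 1 was lowest and number 3 highest. The SE of its differences was 0.39 without the block and 0.11 with it. The DNA difference was 0.27 ± 0.39 (adjusted p = 0.64; 0.075 with the block), with 0.57, 0.21 and 0.01 within the numbers. The knockout difference under DNA was -0.18 ± 0.39 (adjusted p = 0.75; 0.21 with the block), with -0.29, -0.13 and -0.13 within the numbers, and it was 0.10 under quantile normalization. Cxcl2 lay at the 96.9th to 99.7th percentile of the signals of each array and Cxcl3 at the 98.5th to 99.95th. Whether probe sets so near the top of the scale still respond in proportion to the RNA was not tested.

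Cxcl5 (1419728_at), which in mice also draws neutrophils and is better known from epithelial cells, read 448, 1191 and 1219.9 in knockout cells under DNA, 798, 439 and 294 in wild-type cells under DNA, and 324, 590.0 and 338 in wild-type cells in media. The number 2 and 3 arrays of knockout cells were the highest of all 9, while the number 1 array of knockout cells lay among the wild-type values. The knockout difference under DNA was 0.86 ± 0.45 (adjusted p = 0.17; 0.14 with the block), with -0.81, 1.41 and 2.0 within the numbers. Without number 1 it was 1.70 (adjusted p = 0.0076), and without only the number 1 array of knockout cells 1.33 (adjusted p = 0.035). The DNA difference in wild-type cells was 0.22 ± 0.45 (adjusted p = 0.74), and -0.30 without number 1. Against wild-type cells in media, knockout cells under DNA differed by 1.08 ± 0.45, above 0 within each number at 0.45, 0.99 and 1.80 (unadjusted p = 0.037, adjusted p = 0.61). In the blocked fit without number 1 this difference passed (adjusted p = 0.026). Cxcl1 (0.66 ± 0.55) and Cxcl2 (0.67 ± 0.36) were also above media within each number in this comparison (adjusted p = 0.90 and 0.76). Cxcl3 was so in numbers 1 and 2 alone (0.08 ± 0.39, adjusted p = 0.99).

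Cxcl13 had the widest span of the 6 genes. The probe set 1417851_at read 149.5, 71.5 and 67.6 in knockout cells under DNA, 4235, 180.8 and 161.3 in wild-type cells under DNA, and 10635, 772 and 734 in wild-type cells in media. Within each number the order was the same: knockout cells under DNA were lowest and wild-type cells in media highest. The number 1 arrays of wild-type cells lay at least an order of magnitude above the others of their groups. The second probe set, 1448859_at, read 127.4, 72.5 and 104.4 in knockout cells under DNA, 2112, 193.1 and 144.2 in wild-type cells under DNA, and 5984, 489 and 469.7 in wild-type cells in media, with the same order in each number.

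The DNA difference of Cxcl13 in wild-type cells was -1.80 ± 1.28 without the block (adjusted p = 0.31), with -1.33, -2.0 and -2.08 within the numbers. With the block its SE was 0.61 and the gene passed as lower under DNA (adjusted p = 0.038). That call ended in the blocked fit when the probe sets were averaged (adjusted p = 0.054), with an offset of 64 (0.052), with no intensity trend (0.074), without number 2 (0.12) or without number 3 (0.14). The second probe set gave -1.46 for the same difference (adjusted p = 0.074 with the block, adjusted over all probe sets). Leaving out number 1, the arrays that stood highest, gave -2.04 (adjusted p = 0.0018 without the block). Leaving out single arrays without the block gave values as far apart as -0.54, without the number 1 array in media, where it did not pass, and -3.31, without the number 1 array of wild-type cells under DNA (adjusted p = 0.043).

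The knockout difference of Cxcl13 under DNA was -2.31 ± 1.28 (adjusted p = 0.20), a level 4.97-fold lower in knockout cells on the log2(signal + 16) scale. It was -4.68, -1.17 and -1.08 within the numbers, so number 1 carried most of its size. With the block it passed (adjusted p = 0.014), and it did so under all 5 other settings run with the block and with each number left out (adjusted p from 0.0051 to 0.035). Without the block the difference was -1.13 without number 1 (adjusted p = 0.0081) and -0.81 without only the number 1 array of wild-type cells under DNA, where it did not pass. The second probe set gave -1.85 (adjusted p = 0.24, and 0.031 with the block, adjusted over all probe sets). Against wild-type cells in media, knockout cells under DNA were 17.3-fold lower on that scale, at -4.12 ± 1.28 (unadjusted p = 0.0092, adjusted p = 0.39; 0.014 with the block). Within the numbers this was -6.01, -3.17 and -3.17. The blocked call ended with no intensity trend (0.069), without number 2 (0.070) or without number 3 (0.16). Without the block it was -3.17 without number 1 (adjusted p = 0.0016) and -2.85 without only the number 1 array in media, where it did not pass. In knockout cells the signals of 1417851_at stood at percentiles 64.7, 50.1 and 51.9 of their arrays. Such signals cannot be told from background here, since no detection calls were used. The sizes of the 4.97-fold and 17.3-fold differences are therefore uncertain.

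Summed neutrophil markers were, like Cxcl13, highest on the number 1 arrays and lower in knockout than in wild-type cells under DNA in each number, as the panels of marker sums show. Between DNA and media in wild-type cells they ran the other way, with the marker sum higher under DNA in each number and Cxcl13 lower. Of the 9 markers listed, 7 were measured, and all of these passed the filter. Their summed signal was 6568, 3100 and 2798 in knockout cells under DNA, 25651, 4004 and 7415 in wild-type cells under DNA, and 19621, 2581 and 5892 in wild-type cells in media. Ngp and Camp carried most of it, at 14007 and 8179 on the number 1 array of wild-type cells under DNA. Single markers differed. In number 2 under DNA, Ltf (243 against 204), Csf3r (320 against 283) and Cxcr2 (51.6 against 14.9) were higher in knockout cells, while Ngp, Camp, Mpo and Elane were lower. In knockout cells Mpo, Elane and Cxcr2 were not highest on number 1. Of the 7 genes 1 was called lower in knockout cells under DNA than in wild-type cells under DNA (Mpo), and 4 were with the block, where 9.73% and 13.0% of all genes were. The B cell marker sum ran from 148 to 307, from 360 to 2280 and from 286 to 1247 in the same order of groups, with number 2 highest in each group, and 3 of the 5 passed the filter, without the defining marker Pax5. Of these 3, 0 were called lower in knockout than in wild-type cells under DNA, and 3 with the block. In knockout cells under DNA, mast cell and basophil markers summed to 248, 247 and 242. In wild-type cells they summed to 1438, 510 and 543 under DNA and to 1069, 364 and 350 in media. Like the neutrophil sum, theirs was highest on number 1 in each group. It was also lower in knockout cells under DNA, and higher under DNA than in media, in each number. Of the 5, 3 were called lower in knockout than in wild-type cells under DNA, beside 9.73% of all genes. Fibroblast, macrophage and dendritic cell sums were highest on number 1 in each group too. The fibroblast sum, given with the processing, was higher in knockout than in wild-type cells under DNA in each number. The part of these cells in the Cxcl13 values was not tested, and in bulk RNA fewer cells of a type and less RNA per cell cannot be told apart. The spiked control BioB read 406 to 552 on the number 1 arrays and 115 to 189 on the others.

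**Figure D3:**
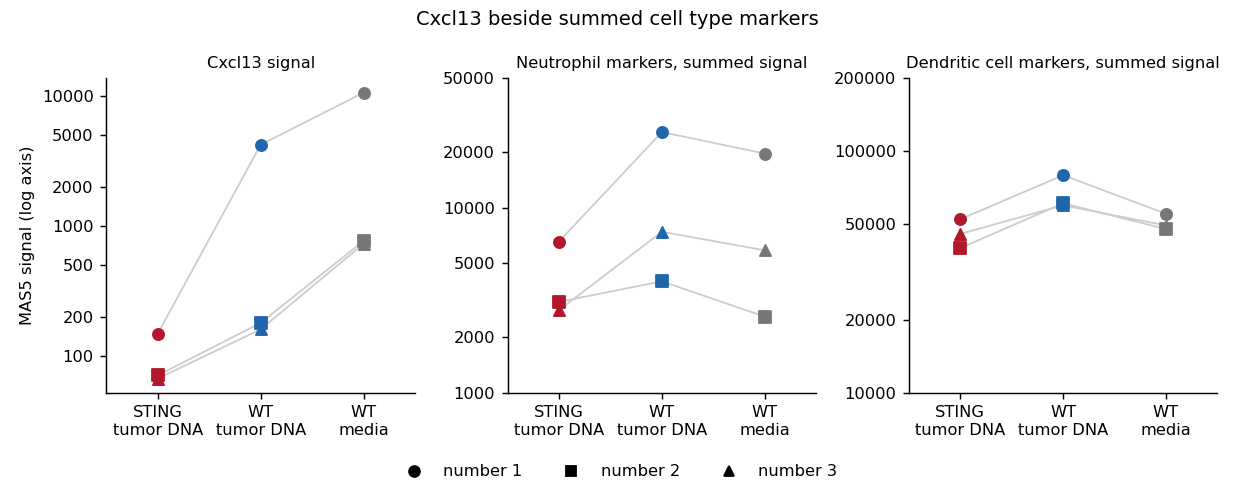
Cxcl13 signal (left) beside the summed signals of 7 neutrophil markers (middle) and of the dendritic cell markers (right), on log axes, with arrays of the same number joined. Number 1 (circles) is highest in each group in all 3 panels, at 10635 for Cxcl13 and 19621 for the neutrophil markers in media.

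Cxcl16 (1418718_at), the membrane-bound member, read 4949.95, 2504 and 3384 in knockout cells under DNA, 7902, 3818 and 4609 in wild-type cells under DNA, and 5483, 3528 and 3182 in wild-type cells in media. All groups overlapped, and number 1 was highest in each. Within every number, wild-type cells under DNA were above both other groups. The DNA difference was 0.39 ± 0.33 (adjusted p = 0.39), with 0.53, 0.11 and 0.53 within the numbers. With the block its SE was 0.13 and the gene rose under DNA (adjusted p = 0.036). That call ended in the blocked fit under quantile normalization (0.13), with no intensity trend (0.080), without number 1 (0.18) or without number 3 (0.19).

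The knockout difference of Cxcl16 under DNA was -0.57 ± 0.33 (adjusted p = 0.21), with -0.67, -0.61 and -0.44 within the numbers. The level was 1.49-fold lower in knockout cells, and with the block the gene fell (adjusted p = 0.0067). That held under all 5 other settings run with the block and with each number left out, at adjusted p from 0.0052 to 0.048. Knockout cells under DNA and wild-type cells in media differed by -0.18 ± 0.33 (adjusted p = 0.98; 0.61 with the block). The second probe set, 1449195_s_at, read 3597, 2034 and 2663 in knockout cells under DNA, 5608, 3097 and 3598 in wild-type cells under DNA, and 4122, 2677 and 2801 in wild-type cells in media. Its differences were 0.34 for DNA against media and -0.56 for the knockout under DNA, close to those of the first.

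Sums of dendritic cell and macrophage markers were, like Cxcl16, highest in wild-type cells under DNA within each number. The 8 dendritic cell markers summed to 39720 to 52284 in knockout cells under DNA, 59700 to 79510 in wild-type cells under DNA, and 47609 to 55090 in wild-type cells in media. The 6 macrophage markers summed to 58366 to 74131, 79272 to 98294 and 60171 to 71798 in the same order. Cells under DNA thus did not overlap between the genotypes in either sum, as was so for 46.0% of single genes. A few genes carried these gaps. Cd86, itself a maturation marker, read 4210, 3801 and 5096 in knockout cells under DNA and 19977, 13463 and 13881 in wild-type cells under DNA, and was the 1 dendritic cell marker of 7 tested called lower in knockout cells (3 with the block). Of all genes 9.73% were called lower in this comparison, and 13.0% with the block. Flt3 was below the filter. Among the 6 macrophage markers Fcgr1 and Mertk were the 2 called lower, beside the same 9.73% of all genes. Fcgr1 read 4911, 1624 and 2515 in knockout cells under DNA and 16709, 13644 and 11086 in wild-type cells under DNA. Adgre1 was higher in knockout cells in each number and was called so with the block alone, where 29.9% of all genes were. Knockout cells under DNA lay below media in the dendritic cell sum in each number and in the macrophage sum in number 2 alone. Cxcl16 did so in numbers 1 and 2 by its first probe set. By its second probe set it did so in each number (-0.20, -0.39 and -0.07). The part of these sums in the Cxcl16 values was not tested.

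**Figure D4:**
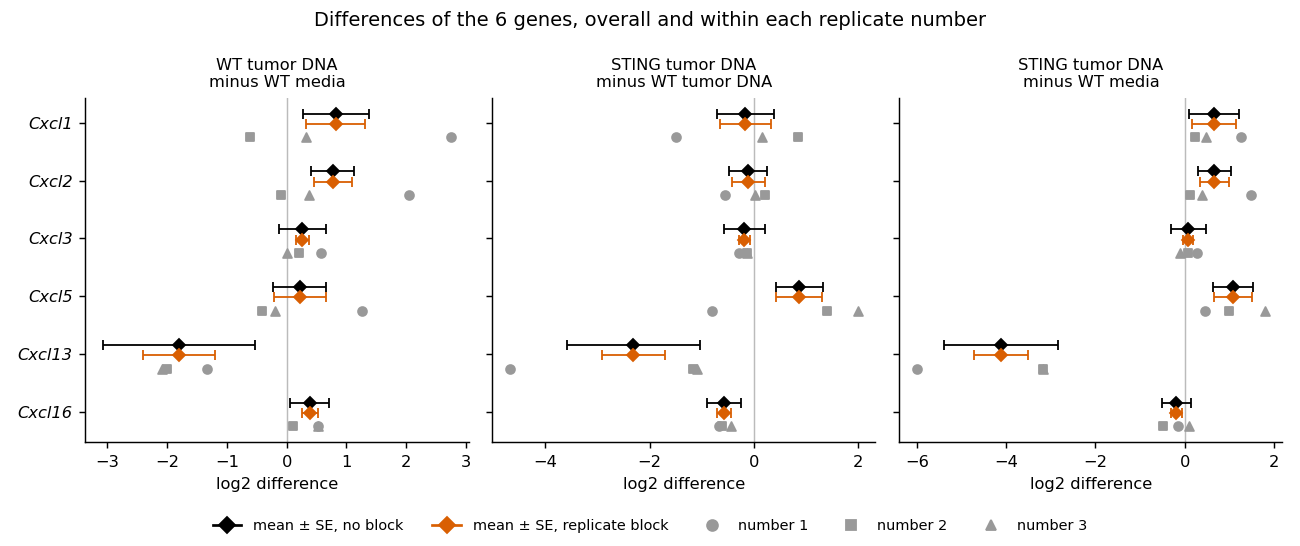
Log2 differences of the 6 genes in the 3 comparisons, as the mean ± SE of the fit without the block (black) and with it (orange), and within each number (grey). For Cxcl3, Cxcl13 and Cxcl16 the SE shrinks with the block, to 0.11, 0.61 and 0.13, while for Cxcl1, Cxcl2 and Cxcl5 the numbers fall on both sides of 0 in the 2 left panels.

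The 6 genes did not run together over the 9 arrays. As a description over arrays that share groups and numbers, log2 values of Cxcl1 and Cxcl2 correlated at 0.94, Cxcl1 and Cxcl3 at 0.60, Cxcl13 and Cxcl16 at 0.65, and Cxcl3 and Cxcl16 at -0.63. The genes most like Cxcl1 were Card19 (0.95), Cxcl2 (0.94) and Mapk6 (0.94), and those most like Cxcl2 were Mapk6 (0.96), Ccl3 (0.95) and Hs3st2 (0.95). Nearest to Cxcl3 were Tyw5 (0.98), Sugt1 (0.96) and Car4 (0.96), and nearest to Cxcl5 were Sdk2 (0.96), Fancm (0.93) and Sp7 (0.90). Cxcl13 was most like Tnpo2 (0.93), Ssbp2 (0.92) and Sorl1 (0.92), and Cxcl16 most like Rab9, Dennd5a and Rcn1 (0.97 each). These are Pearson correlations over 9 arrays.

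Of 9 listed other ligands of the CXC family, 8 were tested in the same fit, and 3 rose under DNA in wild-type cells and fell in knockout cells under DNA, namely Cxcl9, Cxcl10 and Cxcl11, which act on Cxcr3 and draw T cells. Cxcl10 read 7099, 681 and 1316 in knockout cells under DNA, 29157, 24899 and 27905 in wild-type cells under DNA, and 4681, 3948 and 3945 in wild-type cells in media. Its knockout difference was -3.86 ± 0.65 (adjusted p = 0.0019), beside -0.11 ± 0.36 for Cxcl2. Its calls ended without number 3 (adjusted p = 0.11 under DNA and 0.060 for the knockout). Cxcl11 was also lower in knockout cells under DNA than in wild-type cells in media, at -1.83 ± 0.26 (adjusted p = 0.017), a call that ended under 2 of 11 other settings and on leaving out 6 of 12 arrays or numbers. Over all genes tested, 9.94% rose and 23.6% fell under DNA in wild-type cells, and 21.8% rose and 9.73% fell in knockout against wild-type cells under DNA. With the block these shares were 13.2%, 31.6%, 29.9% and 13.0%, and Cxcl14 was then the 1 ligand of the list called higher in knockout cells (0.74 ± 0.37, adjusted p = 0.15; 0.029 with the block). The platelet chemokines Pf4 and Ppbp, which sit in the same run as Cxcl3 and Cxcl5, did not pass.

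Of 6 genes listed as receptors of the 6 chemokines 5 were tested, and the probe sets for Cxcr2, Cxcr5 and Cxcr6 gave low signals. Cxcr2, the receptor of the neutrophil attractants, read 13.3 to 51.6 in knockout cells under DNA, 14.9 to 78.9 in wild-type cells under DNA and 20.5 to 68.9 in wild-type cells in media, and did not pass in any comparison. Cxcr6, the receptor of Cxcl16, read 40.8 to 59.0, 55.1 to 130.6 and 29.4 to 65.3 in the same order and did not pass. Cxcr5, the receptor of Cxcl13, read 4.74, 58.2 and 20.5 in knockout cells under DNA and 43.4, 113.3 and 92.4 in wild-type cells under DNA, a difference of -1.30 ± 0.48 (adjusted p = 0.067; 0.0088 with the block). The signals of these 3 genes cannot be told from background here, since no detection calls were used. Ackr4, a receptor that takes up chemokines without signalling through G proteins, read 221, 246 and 272 in knockout cells under DNA, 357, 403 and 350 in wild-type cells under DNA, and 246, 196 and 286 in wild-type cells in media. It was called higher under DNA (0.59 ± 0.19, adjusted p = 0.037) and lower in knockout cells (-0.56 ± 0.19, adjusted p = 0.048). Each call ended under 10 of 12 leave-outs of an array or a number. The first also ended under 2 of 11 other settings and the second under 4 of 11.

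Tnf and IL-1 are cytokines that induce Cxcl1, Cxcl2 and Cxcl3 in other settings. Of 12 listed cytokines and receptors, 5 rose and 1 fell under DNA in wild-type cells, and 1 rose and 3 fell in knockout cells under DNA. Of all genes 9.94% rose and 23.6% fell in the first comparison, and 21.8% rose and 9.73% fell in the second. With the block 7 rose and 1 fell under DNA, beside 13.2% and 31.6% of all genes, and 1 rose and 6 fell in knockout cells, beside 29.9% and 13.0%. Tnf, an inducer of NF-kappaB, read 1933, 2350 and 2225 in knockout cells under DNA, 16144, 4869 and 8181 in wild-type cells under DNA, and 319, 1898 and 1278 in wild-type cells in media. It rose by 3.20 ± 0.59 under DNA (adjusted p = 0.0035) and was lower in knockout cells, at -1.99 ± 0.59 (adjusted p = 0.029). Lta, the related lymphotoxin alpha, rose by 2.63 ± 0.45 (adjusted p = 0.0024) and was lower in knockout cells (-2.09 ± 0.45, adjusted p = 0.0062). Lta read 17.1, 48.7 and 61.5 in knockout cells under DNA, 205, 230 and 220 in wild-type cells under DNA, and 3.48, 40.9 and 32.5 in media. Its signals in knockout cells and in media cannot be told from background here, so the size of these differences is uncertain. Without number 3 the calls of Tnf ended (adjusted p = 0.052 under DNA and 0.17 for the knockout), as did that of Lta for the knockout (0.059). The knockout call of Tnf also ended without any of 5 single arrays (0.063 to 0.11).

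Il1a and Il1b encode IL-1. Il1b read 5893, 12035 and 13791 in knockout cells under DNA, 11309, 7705 and 15956 in wild-type cells under DNA, and 3271, 5068 and 6906 in wild-type cells in media. It rose under DNA by 1.20 ± 0.38 (adjusted p = 0.035), a call that ended under quantile normalization and with no intensity trend, while the knockout difference was -0.17 ± 0.38 (adjusted p = 0.77) and 0.048 under quantile normalization. Il1a differed by 2.33 ± 1.15 under DNA (adjusted p = 0.15; 0.0026 with the block) and by -1.38 ± 1.15 in knockout cells (adjusted p = 0.40; 0.030 with the block). Their receptor Il1r1 was higher in knockout than in wild-type cells under DNA, at 1.36 ± 0.29 (adjusted p = 0.0061). Tnfrsf1b, a receptor for Tnf, rose under DNA by 1.18 ± 0.27 (adjusted p = 0.0085), and its knockout difference was -0.33 ± 0.27 (adjusted p = 0.39; 0.037 with the block). Tnfrsf1a was lower in knockout cells, at -0.57 ± 0.14 (adjusted p = 0.013). The call of Il1b ended under 7 of 12 leave-outs of an array or a number (adjusted p up to 0.12) and that of Tnfrsf1a under 3 (up to 0.12). That of Tnfrsf1b ended without number 3 (0.087) and that of Il1r1 without number 2 (0.068).

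Of 14 tested genes of the NF-kappaB pathway, 7 rose and 1 fell under DNA in wild-type cells, and 1 rose and 5 fell in knockout cells under DNA. Of all genes 9.94% rose and 23.6% fell in the first comparison, and 21.8% rose and 9.73% fell in the second. With the block 9 rose and 1 fell under DNA, beside 13.2% and 31.6% of all genes, and 1 rose and 7 fell in knockout cells, beside 29.9% and 13.0%. Tnfaip3, which encodes the NF-kappaB inhibitor A20 and is itself a target, read 3518, 2924 and 3729 in knockout cells under DNA, 10468, 6167 and 8982 in wild-type cells under DNA, and 1785, 2976 and 2928 in wild-type cells in media. It rose by 1.73 ± 0.24 under DNA (adjusted p = 0.0010) and was lower in knockout cells, at -1.30 ± 0.24 (adjusted p = 0.0033). The subunit gene Rel rose by 1.51 ± 0.23 (adjusted p = 0.0015) and was lower in knockout cells (-0.84 ± 0.23, adjusted p = 0.019). Nfkbie, an inhibitor, rose by 1.19 ± 0.23 (adjusted p = 0.0042). Nfkbiz, a cofactor of NF-kappaB, rose by 1.47 ± 0.34 (adjusted p = 0.0091) and was lower in knockout cells (-1.05 ± 0.34, adjusted p = 0.040), a call that ended under 4 of 11 other settings. Ikbkb, the kinase that starts the pathway, was the 1 called the other way, higher in knockout cells at 0.55 ± 0.15 (adjusted p = 0.017), which ended when probe sets were averaged (adjusted p = 0.50). Without number 3 the calls of Nfkbie (0.051) and Nfkbiz (0.11) under DNA and of Tnfaip3 in knockout cells (0.059) ended. The knockout calls of Rel, Nfkbiz and Ikbkb ended under 5, 8 and 4 of 12 leave-outs, at adjusted p up to 0.14, 0.24 and 0.13.

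**Figure D5:**
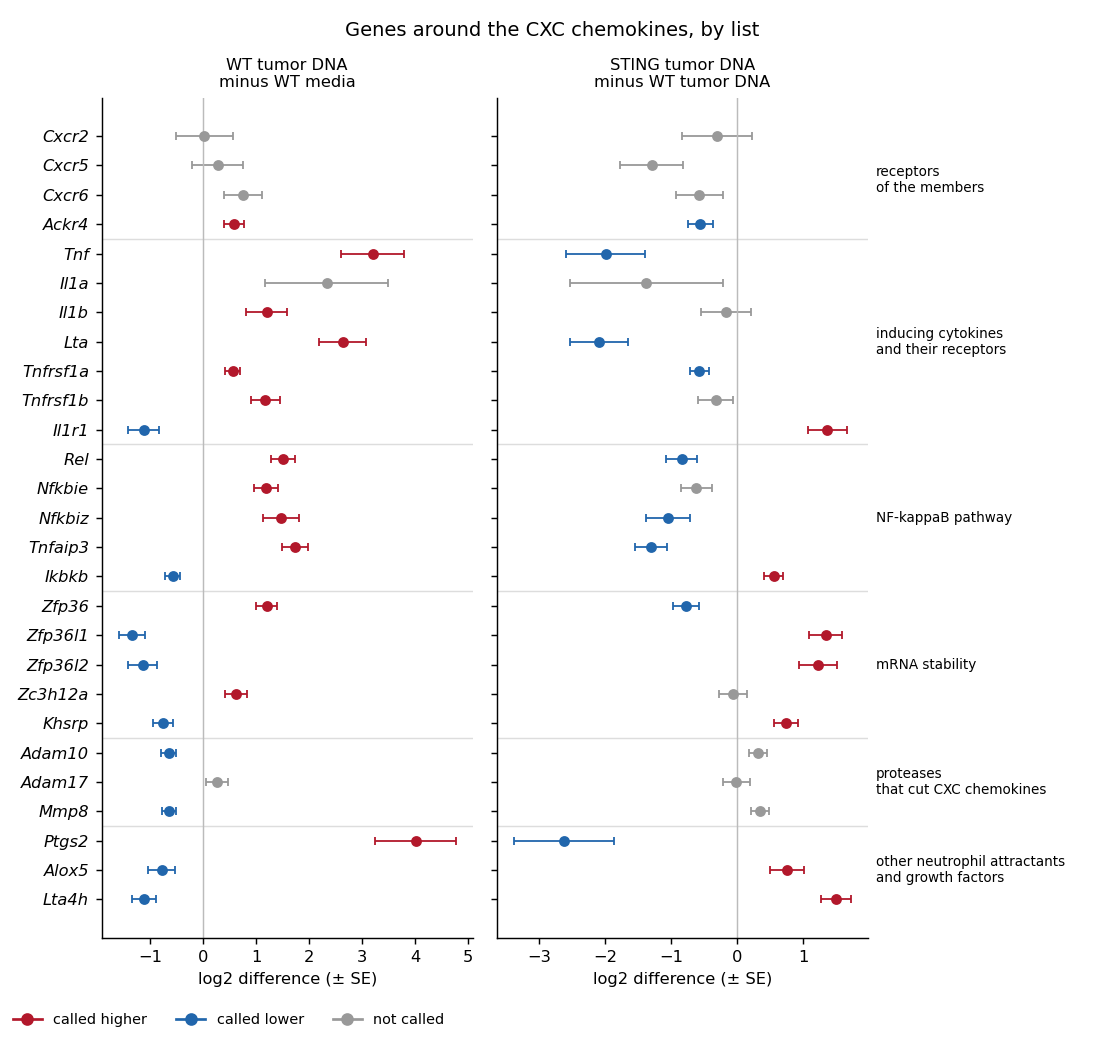
Log2 differences (± SE) of named genes around the chemokines, by list, for DNA against media in wild-type cells (left) and knockout against wild-type cells under DNA (right), with called genes in red (higher) or blue (lower) and others in grey. Tnf, Lta, Tnfaip3, Rel, Nfkbiz, Zfp36 and Ptgs2 are red on the left and blue on the right.

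Of 9 tested genes that act on the stability of chemokine messages, 2 rose and 3 fell under DNA, beside 9.94% and 23.6% of all genes. In knockout cells under DNA 4 rose and 1 fell, beside 21.8% and 9.73%. With the block 4 rose and 2 fell, beside 29.9% and 13.0%. Most of the list speeds decay, but Elavl1 and Traf3ip2 stabilise such messages. Elavl1 was 1 of the 4 that rose in knockout cells (0.39 ± 0.12, adjusted p = 0.033), and Traf3ip2 passed as lower with the block alone (adjusted p = 0.15; 0.018 with the block). Zfp36, which binds AU-rich elements and speeds decay, read 3717, 2152 and 2868 in knockout cells under DNA, 5526, 4436 and 4690 in wild-type cells under DNA, and 2286, 2223 and 1839 in wild-type cells in media. It rose by 1.20 ± 0.20 (adjusted p = 0.0022) and was lower in knockout cells (-0.77 ± 0.20, adjusted p = 0.016). Its relatives went the other way: Zfp36l1 was higher in knockout cells by 1.34 ± 0.25 (adjusted p = 0.0031) and Zfp36l2 by 1.22 ± 0.28 (adjusted p = 0.0091). Khsrp, another decay factor, was higher in knockout cells by 0.74 ± 0.18 (adjusted p = 0.013). Zc3h12a, an RNase for such messages, rose under DNA by 0.61 ± 0.21 (adjusted p = 0.044), a call that ended under 5 of 11 other settings and 11 of 12 leave-outs, and its knockout difference was -0.07 ± 0.21. Without number 3 the calls of Zfp36 (0.054 under DNA and 0.12 in knockout cells), Zfp36l1 (0.080), Zfp36l2 (0.10) and Khsrp (0.085) ended. Without number 2 those of Zfp36 (0.089) and Zfp36l2 (0.058) in knockout cells ended, and without number 1 that of Khsrp (0.073). The knockout call of Zfp36 also ended without the number 2 array of knockout cells (0.054) or the number 1 array of wild-type cells under DNA (0.055).

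Of 6 tested proteases that cut CXC chemokines, 2 fell under DNA, beside 23.6% of all genes, and 0 passed in knockout cells under DNA, beside 31.5%. With the block 3 fell under DNA, beside 31.6% of all genes, and 1 rose in knockout cells, beside 29.9%. Mmp9 was among the 3 that fell (adjusted p = 0.024 with the block) and did not pass without the block. Adam10, which sheds Cxcl16 from resting cells, read 10025, 7768 and 8030 in knockout cells under DNA, 6638, 7786 and 6313 in wild-type cells under DNA, and 11941, 9799 and 10656 in wild-type cells in media. It fell by 0.64 on the log2 scale under DNA (adjusted p = 0.0073; 0.10 without number 3), and its knockout difference was 0.31 ± 0.14 (adjusted p = 0.12; 0.024 under quantile normalization). Adam17, the sheddase of stimulated cells, differed by 0.26 ± 0.20 under DNA (adjusted p = 0.34) and by -0.01 ± 0.20 in knockout cells, or 0.13 under quantile normalization. Mmp8, a collagenase of neutrophils that trims chemokines, fell by 0.64 on the log2 scale under DNA (adjusted p = 0.0056), and its knockout difference was 0.35 ± 0.13 (adjusted p = 0.074; 0.049 with the block).

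Of 7 tested genes listed around other attractants and growth factors of neutrophils, enzymes among them, 1 rose and 2 fell under DNA, and 2 rose and 1 fell in knockout cells under DNA. The 3 of 7 called in each comparison stand beside 33.6% and 31.5% of all genes. The 1 that rose under DNA, and the 1 that fell in knockout cells, was Ptgs2. It encodes the inducible cyclooxygenase, an enzyme and not itself an attractant or growth factor. Ptgs2 read 429.7, 669.6 and 733 in knockout cells under DNA, 12454, 909.8 and 4564 in wild-type cells under DNA, and 357, 197 and 144 in wild-type cells in media. It rose by 4.01 ± 0.76 (adjusted p = 0.0038) and was lower in knockout cells, at -2.62 ± 0.76 (adjusted p = 0.025). The first call ended without number 3 (0.080) and the second under 7 of 12 leave-outs (0.054 to 0.17). Lta4h, which makes the neutrophil attractant leukotriene B4, was higher in knockout cells by 1.495 ± 0.23 (adjusted p = 0.0012). Alox5, which acts before it in that route, was higher by 0.76 ± 0.25 (adjusted p = 0.046), a call that ended under 5 of 11 other settings and 9 of 12 leave-outs.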

How the data were processed

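The authors deposited linear signal intensities from MAS5, per the submitters' processing notes, without a version. A genome build is not given in the sources used here. Between the 2nd and the 98th percentile the deposited intensities averaged 500 on each of the 9 arrays, which shows a common scaling. Detection calls did not enter, and the number of arrays limits the precision. Biotin-labelled cRNA came from 6 ug of total RNA per the labels.

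Of 45101 probe sets 64 were controls and 34945 carried 1 gene symbol. Signals were analysed as log2(signal + 16), a scale that understates changes of dim genes. Probe sets with a mean above the 40th percentile (5.67) were kept, 27022 in all, and the one with the highest mean stood for each of 12586 genes. Linear models with limma 3.58.1 in R 4.3.3 (lmFit, and eBayes with an intensity trend) used all 9 arrays and gave 2-sided p-values adjusted by the Benjamini-Hochberg method over all genes, called below 0.05. The code was tested on simulated data.

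Numbers come from the titles, where the first of each group has none and was taken as 1. Residuals from group means correlated at 0.17 to 0.49 for 9 same-numbered pairs of arrays and at -0.42 to 0.14 for the 18 others. The numbers were therefore taken to pair the samples, though the labels do not say what a number marks. Where the block changes a call given here the text says so.

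The members and lists were chosen with earlier results of these data known. The genes named were each member, the 3 called genes with the smallest adjusted p of each list and comparison, a set named whatever their result (Cxcr2, Cxcr5, Cxcr6, Adam10, Adam17, Tnf, Il1a, Il1b, Nfkbiz, Zfp36 and Zc3h12a), Sting1, and for each member the 3 genes with the highest correlation. Pf4, Ppbp, Cxcl14, Elavl1, Traf3ip2, Mmp9, Pax5, Flt3 and single markers are named outside that rule, having been chosen after their values were seen. Markers of T and NK cells summed to 118 to 155 in knockout cells under DNA, 99.8 to 165 in wild-type cells under DNA and 124 to 126 in wild-type cells in media, with 4 of 5 below the filter. Fibroblast markers summed to 6876, 1075 and 4083, to 4857, 962 and 738, and to 5823, 933 and 742 in the same order of groups and numbers.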

Additional observations from a re-analysis of the deposited data

How the results depend on the processing

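Leaving out 1 array or 1 number gave 1492 to 4207 called genes for tumor DNA against media, 1379 to 3949 for the knockout under DNA and 4 to 131 for knockout cells under DNA against media, and 0 to 1, 0 to 2 and 0 to 1 of the 6 chemokines. Testing all probe sets gave 7284, 6796 and 103 calls. In the last comparison there were 176 calls with the replicate block and 30 with only the 2 groups in the fit, against 54. With the replicate block 2, 2 and 1 of the 6 chemokines were called. The further settings of that fit were chosen after seeing the data. They gave 1 call for DNA against media under quantile normalization, 1 with probe sets averaged, 1 with an offset of 64, 0 with no intensity trend, 1 without number 1, 3 without number 2 and 0 without number 3. The third comparison gave 0 with no intensity trend, 2 without number 1 and 0 without number 2 or number 3. For the knockout under DNA 2 or 3 were called under each of these settings.

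For DNA against media the leave-out ranges were -0.14 to 1.54 for Cxcl1, -0.15 to 0.56 for Cxcl3, -0.30 to 0.54 for Cxcl5 and -0.34 to 0.53 for Cxcr2 (-0.019 with an offset of 0). For the knockout under DNA they were -0.67 to 0.50 for Cxcl1, -0.29 to 0.12 for Cxcl2, -0.45 to 0.13 for Cxcl3, -1.02 to 0.39 for Cxcr2, -0.21 to 0.15 for Adam17, -0.57 to 0.22 for Il1b and -0.20 to 0.058 for Zc3h12a. Under quantile normalization, with or without the block, Cxcl2 was 0.15 and Cxcl3 0.10, and without the block Adam17 was 0.13 and Il1b 0.048. For knockout cells under DNA against media the ranges were -0.33 to 0.40 for Cxcl3 and -0.44 to 0.052 for Cxcl16. In the blocked fit without number 1, Cxcl1 was -0.14 and Cxcl5 -0.30 for DNA against media, Cxcl1 0.50 and Cxcl2 0.12 for the knockout under DNA, and Cxcl3 -0.014 in the third comparison. The causes of these turns were not tested.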
